A study of Homo sapiens with 30 samples.

Results

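The comparison described here is between the 2 peak lists of cells that reached the same midbrain medium from different neural ectoderm: aNE_M, which came from anterior neural ectoderm (aNE), and pNE_M, which came from posterior neural ectoderm (pNE). Peaks of all 10 lists of the study on chromosomes 1 to 22 that shared 1 bp or more were joined into 476170 merged regions, and a region with a peak of a given list was called open in it. On this rule 62184 regions were open in aNE_M and not in pNE_M, which is 13.1% of all regions, and 58494 were open in pNE_M and not in aNE_M, which is 12.3%. A further 136626 regions were open in both. The 120678 regions open in only one of the lists are called exclusive below.

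All cells were H1, an established wild-type human embryonic stem cell line. They were turned into definitive ectoderm (DE) over the first day, in CDM2 medium with A8301, trametinib, C59 and LDN193189. Both origins then had A8301, LDN193189 and thiazovivin on the second day. The anterior medium added C59, which blocks WNT secretion, at 1 µM. The posterior medium added the retinoic acid receptor agonist TTNPB at 50 nM, FGF2 at 20 ng/mL and the tankyrase inhibitor XAV939 at 1 µM. Cells were taken on day 2 (aNE, pNE) or moved on and taken on day 4 from a telencephalon (aNE_T, pNE_T), midbrain (aNE_M, pNE_M) or hindbrain medium (aNE_H, pNE_H). Undifferentiated cells (hPSC, day 0) and DE (day 1) complete the 10 groups, each labelled as 3 biological replicates of 50000 cells. What the midbrain medium holds is not given in the sources used here. The labels give cultures bound for day 4 at 75000 cells per square cm on the anterior route and at 150000 on the posterior route, so origin and plating density cannot be told apart.

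ATAC-seq maps DNA that is open to the Tn5 transposase, and the data are peak positions with no height. There is 1 deposited list for each group. Values therefore carry no replicate error, no test between the groups can be made, and every difference is between lists. Read depth is unknown. Wilson 95% intervals cover counting error over regions only. On chromosomes 1 to 22 the aNE_M list held 211358 peaks covering 88.2 Mb and the pNE_M list held 209967 covering 81.2 Mb. The narrowest peak was 122 bp in aNE_M and 114 bp in pNE_M.

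As background, a neural plate is divided along its length by signals from its ends and from local organizers. OTX2 marks its anterior part and GBX2 its posterior part, and at their border the midbrain-hindbrain organizer forms, marked by FGF8, WNT1, EN1, EN2, PAX2, PAX5, PAX8 and LMX1B. Retinoic acid, WNT and FGF signals move cells to more posterior identities, where the 4 HOX clusters are switched on, and HOX genes are normally silent in the midbrain.

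Promoter sequences are printed first because the exclusive promoters are the one class of region for which sequence was at hand. Each runs from 250 bases before to 50 bases after a transcript start in the RefSeq table of GRCh38.p14, which held 15100 of the 19122 protein-coding genes on these chromosomes. Where it gives a gene several starts, the first one listed was used. The promoters of HOXA2 (chr7:27102634-27102933, minus strand), HOXB1 (chr17:48530962-48531261, minus strand) and HOXD4 (chr2:176151300-176151599, plus strand) were open in pNE_M and closed in aNE_M, and are shown because HOX genes had the largest share of genes called to pNE_M by their surrounding regions among the gene lists below. Capitals mark the bases inside the pNE_M peak, 40 of 300 in HOXA2, 300 in HOXB1 and 118 in HOXD4.
HOXA2: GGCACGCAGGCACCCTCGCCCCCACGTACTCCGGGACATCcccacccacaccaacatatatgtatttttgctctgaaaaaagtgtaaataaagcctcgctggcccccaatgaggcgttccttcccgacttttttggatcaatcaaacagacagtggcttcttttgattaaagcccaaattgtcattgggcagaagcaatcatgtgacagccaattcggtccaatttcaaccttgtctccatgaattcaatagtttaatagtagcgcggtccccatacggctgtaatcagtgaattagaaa
HOXB1: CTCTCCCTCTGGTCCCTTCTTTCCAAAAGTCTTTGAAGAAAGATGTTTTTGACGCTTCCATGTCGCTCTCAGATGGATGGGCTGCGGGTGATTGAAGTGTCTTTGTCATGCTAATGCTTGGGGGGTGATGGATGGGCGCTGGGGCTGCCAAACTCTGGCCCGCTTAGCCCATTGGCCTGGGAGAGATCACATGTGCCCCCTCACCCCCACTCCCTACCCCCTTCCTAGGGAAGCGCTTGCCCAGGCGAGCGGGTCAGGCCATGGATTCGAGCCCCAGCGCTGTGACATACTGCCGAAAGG
HOXD4: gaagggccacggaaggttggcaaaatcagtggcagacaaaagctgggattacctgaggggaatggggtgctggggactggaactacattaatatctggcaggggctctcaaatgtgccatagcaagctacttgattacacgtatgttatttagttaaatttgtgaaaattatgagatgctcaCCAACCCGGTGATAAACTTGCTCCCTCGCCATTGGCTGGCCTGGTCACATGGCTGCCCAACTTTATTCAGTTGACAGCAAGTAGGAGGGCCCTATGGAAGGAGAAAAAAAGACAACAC

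The aNE_M and pNE_M lists had a Jaccard index (regions open in both over regions open in either) of 0.531 (0.529 to 0.533). Exclusive regions made up 31.3% of the regions open in aNE_M and 30.0% of those open in pNE_M. With each of the 10 lists cut to its widest 162041 peaks, the size of the smallest list, the regions numbered 349534. The aNE_M-only regions were then 47877 (13.7%) and the pNE_M-only regions 46113 (13.2%), and the index was again 0.531. The other media gave like indices, 0.520 in telencephalon medium and 0.483 in hindbrain medium as deposited, and 0.515 and 0.508 at equal size.

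Exclusive peaks were narrower than shared ones and lay farther from gene ends. The median peak was 191.5 bp wide at aNE_M-only regions and 189 bp at pNE_M-only regions, against 383 bp in aNE_M and 340 bp in pNE_M where both were open. Of the widest 25% of peaks, 5.02% in aNE_M and 9.52% in pNE_M had no overlap with the other list, and of the narrowest 25% the shares were 61.4% and 51.9%. Within 1 kb of a gene end lay 8.57% of aNE_M-only and 7.27% of pNE_M-only regions, and 19.3% of shared regions. Overlap with a protein-coding gene was seen at 51.9% of aNE_M-only, 45.9% of pNE_M-only and 53.8% of shared regions. The pNE_M-only regions lay at a median of 62.6 kb from the nearest end of a protein-coding gene. The aNE_M-only regions lay at 44.3 kb and the shared regions at 32.7 kb. By chromosome the pNE_M share of exclusive regions ran from 33.8% on chromosome 22 and 35.1% on chromosome 19, which is the densest in genes, to 57.1% on chromosome 4. Across the 22 chromosomes it fell as protein-coding genes per Mb went up, with Pearson's r of -0.68 and Spearman's rho of -0.73, a description over chromosomes that share the same 2 lists. At equal list size these values were -0.69 and -0.76.

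The exclusive regions had different histories. As deposited, 54.0% of aNE_M-only regions were already open in hPSC or DE and another 17.4% were first open on day 2. Only 9.84% (6117 regions) were open in no other list. Of pNE_M-only regions 22.4% were open in hPSC or DE and 9.16% were first open on day 2. Another 39.1% appeared first among the other day 4 lists, and 29.3% (17167 regions) in no other list. At equal size 9.77% of aNE_M-only and 34.2% of pNE_M-only regions were open in no other list. The regions that set pNE_M apart were thus mainly ones not open before day 4, and those that set aNE_M apart mainly ones that earlier lists held and pNE_M lacked.

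All classes of regions were open more often in pNE than in aNE, the aNE_M-only regions included. On day 2, 49.5% of aNE_M-only regions were open in pNE and 32.8% in aNE. In detail, 25.8% were open in pNE alone, 9.05% in aNE alone, 23.8% in both and 41.4% in neither. The aNE list is the shortest of the 10, at 162041 peaks against 199638 in pNE, and at equal size the shares were 53.3% in pNE and 45.9% in aNE. The gap was 16.7 points as deposited and 7.47 points at equal size. For regions open in both aNE_M and pNE_M it was 14.5 and 8.0 points, so the lean to pNE is not particular to aNE_M-only regions. Of pNE_M-only regions 17.4% were open in pNE, 10.4% in aNE and 78.8% in neither, and at equal size 20.7%, 18.2% and 72.4%. Among regions open in both day 4 lists, 73.9% had been open in both parents.

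In the other day 4 media the pNE_M-only regions recurred on the posterior route. They were open in 31.9% of cases in pNE_T and 58.2% in pNE_H, against 12.2% in aNE_T and 14.9% in aNE_H. The pNE_H list is the longest of the 10, at 302355 peaks. At equal size the shares were 33.1% in pNE_T and 41.8% in pNE_H, against 15.7% in aNE_T and 18.1% in aNE_H. The aNE_M-only regions were open in 49.7% of cases in aNE_T, 49.9% in aNE_H, 32.4% in pNE_T and 54.6% in pNE_H. At equal size the last of these was 32.9%, below both anterior lists at 55.7% and 54.5%. Regions open in all 3 posterior and no anterior day 4 lists numbered 11092 (19.0% of the pNE_M-only regions), and the mirror class numbered 3037 (4.88% of the aNE_M-only regions). At equal size they numbered 7280 and 4924.

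**Figure D1:**
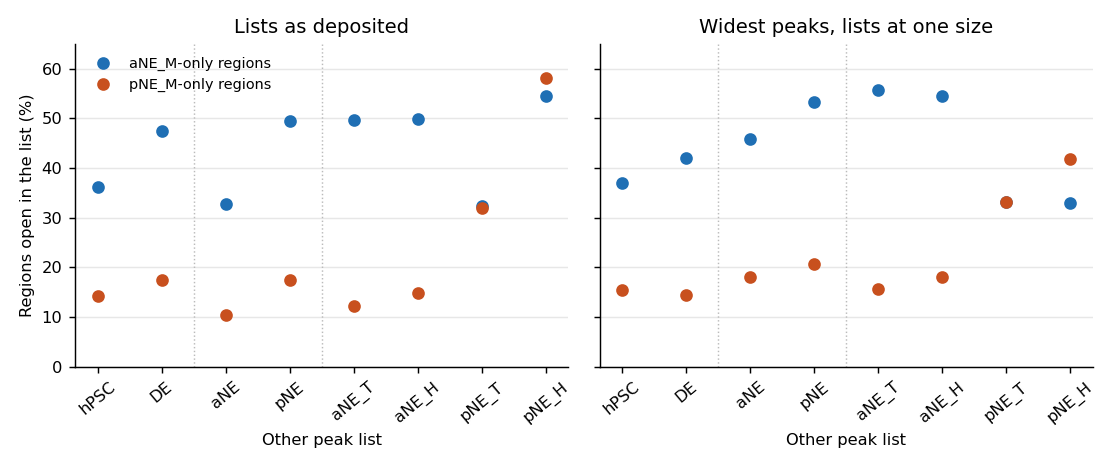
Share of exclusive regions (%, vertical axis) open in each of the other 8 peak lists (horizontal axis), with lists as deposited on the left and cut to the widest 162041 peaks on the right. Blue points are aNE_M-only and orange points pNE_M-only regions. The blue points lie above the orange ones in all lists of days 0 to 2, and the aNE_M-only share is higher in pNE than in aNE.

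The gene level was read by counting exclusive regions in each protein-coding gene and the 50 kb on either side of it, and a gene was called to one side where the difference was at least 3 regions. Of 18669 genes with a region, 5218 (28%) were called to the aNE_M side and 2040 (10.9%) to the pNE_M side. At equal list size the shares were 21.8% and 9.55%. These shares are the background for the counts of gene lists below. Genes close together share regions, so the members of a list are not independent.

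Midbrain and midbrain-hindbrain boundary genes lay on the aNE_M side. Of the 24 genes listed, 16 were called to aNE_M and 3 to pNE_M, with a median difference of 3 regions in favour of aNE_M, where the median of all genes was 1. At equal size 12 were called to aNE_M and 2 to pNE_M, against 21.8% and 9.55% of all genes. The windows of these genes held 12 to 53 regions open in either list, and of the 12823 genes with as many, 33.8% were called to aNE_M and 11.9% to pNE_M. Of the listed genes 17 were in the 25% of genes with the fewest neighbours within 500 kb, where 12 of them and 24.8% of all genes were called to aNE_M. None of the 20 promoters of these genes in the promoter table was exclusive: 14 were open in both lists and 6 in neither. The exclusive regions at these genes were therefore outside the tabulated promoters.

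LMX1B, a LIM homeodomain factor of the isthmic organizer and of dopaminergic neurons, had 12 aNE_M-only and 3 pNE_M-only regions beside 27 shared ones. Its open regions numbered 31 in aNE and 31 in pNE on day 2. On day 4 aNE_M had 39 and pNE_M 30, aNE_T and aNE_H had 36 each, pNE_T had 34 and pNE_H 40. aNE_M was the highest of the anterior lists and pNE_M the lowest of all the day 4 lists. Of the 12 aNE_M-only regions 3 were also open in pNE and 2 in aNE. The hindbrain medium shared 7 of them on the anterior and 6 on the posterior route, and 2 were in no other list.

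PAX8, a paired-box gene of the midbrain-hindbrain boundary and the ear, had 9 aNE_M-only and no pNE_M-only regions, with 22 shared. Its open regions numbered 31 in aNE_M and 22 in pNE_M, against 19 in aNE and 25 in pNE. The other lists had 31 in pNE_H, 24 in pNE_T, 28 in aNE_H, 25 in aNE_T, 30 in hPSC and 28 in DE. Of the 9 aNE_M-only regions 5 were open in pNE and 6 in pNE_H, and 2 were in no other list. At equal size PAX8 had 12 aNE_M-only and 2 pNE_M-only regions. CNPY1, which modulates FGF signalling at the same boundary and lies beside EN2, had 9 and none, and EN2, an engrailed gene that specifies the midbrain and cerebellum, had 3 and none. The windows of CNPY1 and EN2 overlap. Open regions at EN2 numbered 15 in aNE_M and 12 in pNE_M, with 16 in each of pNE, aNE_H, pNE_T and pNE_H. The 3 aNE_M-only regions of EN2 were all open in pNE and aNE_H too. At CNPY1 the open regions numbered 27 in aNE_M, 25 in pNE, 26 in pNE_H and 18 in pNE_M. At PAX7 they numbered 44 in aNE_M, 46 in aNE_T, 44 in pNE_H and 35 in pNE_M. At each of these 3 genes pNE_M had the fewest of the 10 lists. PAX7, which marks dorsal midbrain and neural crest, had 13 and 4, and the 100 kb bin over the end of the gene held 11 aNE_M-only and no pNE_M-only regions, among the most one-sided bins of the genome.

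The main early regulators gave smaller differences. OTX2 had 5 aNE_M-only and 2 pNE_M-only regions, and OTX1, its paralogue, 6 and 2. GBX2, which marks the hindbrain side of the border, also leaned to aNE_M with 8 and 2. EN1 had 5 and 2, PAX2 had 10 and 5, PAX5 had 11 and 8, and LMX1A, the paralogue of LMX1B in dopaminergic progenitors, had 11 and 5. At equal size EN1 had 2 and 2, and LMX1A 7 and 6, so neither was called. WNT1, the boundary WNT ligand, had 2 and 1 and was not called. FGF8, the boundary ligand, leaned to pNE_M with 1 and 4 regions, and at equal size it had 2 and 2. The others called to pNE_M were POU4F1, a factor of sensory and some midbrain neurons, with none and 4, and MEIS2, a HOX cofactor that is also a midbrain tectum gene, with 9 and 13.

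**Figure D2:**
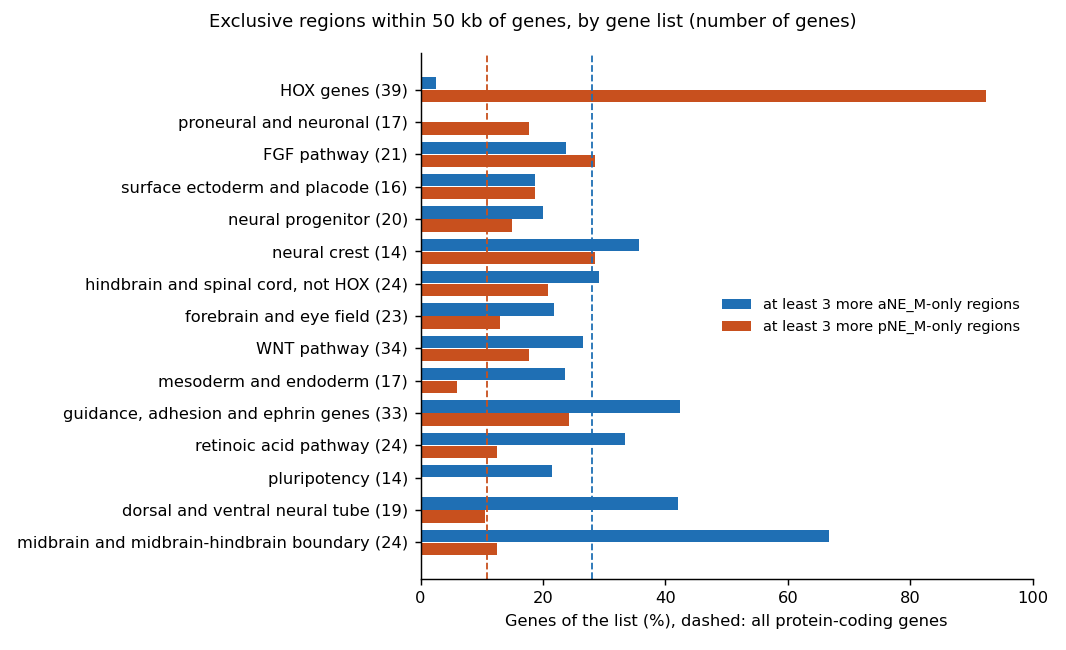
Share of the genes of each list (%, horizontal axis) with at least 3 more exclusive regions of aNE_M (blue) or pNE_M (orange) within 50 kb; the number of genes is in brackets and dashed lines give all protein-coding genes. The HOX list reaches 92.3% to the pNE_M side and the midbrain list 66.7% to the aNE_M side.

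HOX genes lay on the pNE_M side. Of 39 genes 36 were called to pNE_M (10.9% of all genes) and 1, HOXC13, to aNE_M, and at equal size 31 were called to pNE_M and none to aNE_M. The 39 genes sit in 4 clusters and share regions, so the cluster is the unit that can be compared. HOXB held 8 aNE_M-only and 25 pNE_M-only regions, HOXC 6 and 15, HOXD 5 and 14 and HOXA 3 and 8.

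In each cluster more bases lay inside peaks in pNE_M than in aNE_M. In HOXB (chr17:48528526-48728750) peaks covered 14790 bases in aNE_M, the fewest of the 10 lists, with 15212 in aNE_T and 15579 in aNE_H. They covered 23479 in pNE_M, with 20505 in pNE_T and 27444 in pNE_H. The day 2 lists were at 15672 in aNE and 16416 in pNE, and hPSC was at 21509. All 3 posterior day 4 lists were thus above both parents in HOXB, and hPSC had more than either parent as well. In HOXA (chr7:27092993-27200091) the cover was 14613 bases in aNE_M and 17730 in pNE_M, with 13429 in aNE_T, 12051 in aNE_H, 17101 in pNE_T and 20768 in pNE_H. In HOXD (chr2:176087487-176190907) it was 14308 in aNE_M and 19024 in pNE_M, with 16760 in pNE_T and 21395 in pNE_H. HOXC (chr12:53938831-54056030) differed least, with 11986 bases in aNE_M and 13121 in pNE_M, and there aNE_T at 12757 exceeded pNE_T at 12252. The hPSC list was at 14355 in HOXA, 17041 in HOXD and 14279 in HOXC, and it was above pNE_M in HOXC only. With only the wider 50% of each list the HOXC difference changed sign, to -1327 bases (pNE_M minus aNE_M).

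**Figure D3:**
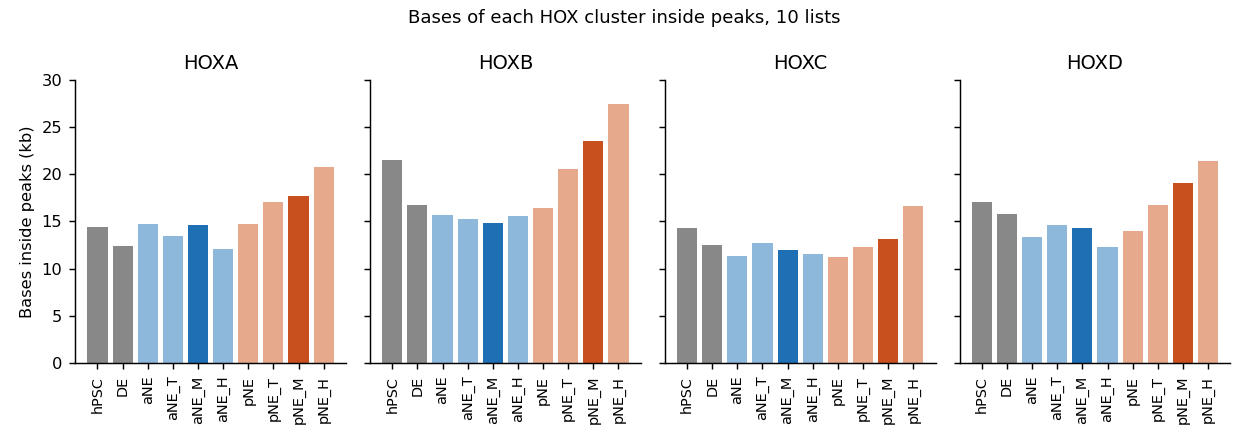
Bases of the HOXA, HOXB, HOXC and HOXD clusters inside peaks (kb, vertical axis) in each of the 10 lists (horizontal axis), with aNE_M in dark blue, pNE_M in dark orange and other lists in pale colours or grey. In HOXB the aNE_M bar is at 14.8 kb and the pNE_M bar at 23.5 kb.

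Of the tabulated HOX promoters, 20 in number, 8 were open in aNE_M and 14 in pNE_M. The counts were 11 in aNE, 10 in pNE, 9 in aNE_T, 8 in aNE_H, 12 in pNE_T, 13 in pNE_H and 12 in each of hPSC and DE. The 6 open in pNE_M alone of the pair were HOXA2, HOXA7, HOXB1, HOXC4, HOXC5 and HOXD4. The table gives HOXC4 and HOXC5 the same promoter, so these are 5 places, and of 19 distinct HOX promoters 13 were open in pNE_M and 8 in aNE_M. HOXA2, a rhombomere patterning gene, was open in pNE and all 3 of its descendants and in no other list. HOXB1, a retinoic acid target of the early hindbrain, was open in hPSC, DE and both parents and was closed in the 3 anterior day 4 lists alone. HOXD4 was open in hPSC, DE and the 3 posterior day 4 lists. The promoter shared by HOXC4 and HOXC5 was open in pNE_M and no other list.

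The retinoic acid pathway as a list stood near the background, with 8 of 24 genes called to aNE_M (28% of all) and 3 to pNE_M (10.9% of all). One member was far from the rest. RARB, the retinoic acid receptor gene that is itself induced by retinoic acid, is 769 kb long and had 8 aNE_M-only and 37 pNE_M-only regions in its window, and 7 and 27 at equal size. Open regions at RARB numbered 36 in aNE and 58 in pNE. On day 4 they were 46 in aNE_M, 48 in aNE_T, 49 in aNE_H, 81 in pNE_T, 75 in pNE_M and 132 in pNE_H. Every posterior list was above every anterior one. Of the 37 pNE_M-only regions 10 were open in pNE, 12 in pNE_T and 24 in pNE_H, and 9 in no other list. Other pathway genes leaned to aNE_M, such as TGM2, a transglutaminase induced by retinoic acid, with 11 and 2, and RDH10, which makes retinaldehyde, with 7 and 2. CYP26A1, the main retinoic acid-degrading enzyme, had 4 and 5 and was not called.

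Posterior and caudal regulators outside the HOX clusters split. TSHZ1, a zinc finger gene of the trunk and hindbrain, had 2 aNE_M-only and 16 pNE_M-only regions, with 13 open regions in aNE_M and 27 in pNE_M. CDX2, the caudal homeobox gene that acts above posterior HOX genes, had 2 and 11. Its open regions numbered 19 in aNE_M, 28 in pNE_M and 28 in pNE_H, and between 15 and 20 in aNE, pNE, aNE_T, aNE_H and pNE_T. Of its 11 pNE_M-only regions 6 were open in pNE_H and 1 in pNE, and 4 were in no other list. MEIS1, which encodes a HOX cofactor, had 3 and 11. The list of 24 such genes held 5 called to pNE_M and 7 to aNE_M, and at equal size 5 and 3. TSHZ3, a paralogue of TSHZ1, had 17 aNE_M-only and 5 pNE_M-only regions, but 8 and 7 at equal size, where it was not called.

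**Figure D4:**
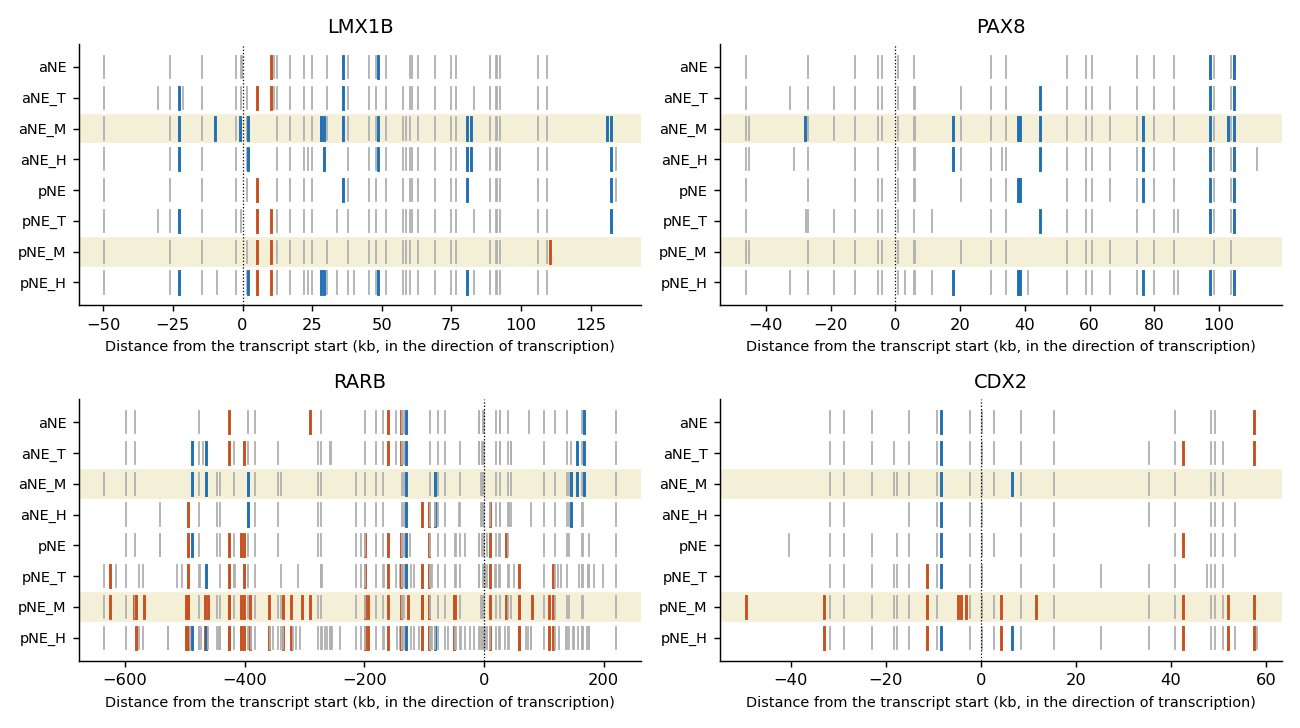
Open regions around LMX1B, PAX8, RARB and CDX2 in 8 lists (rows) by distance from a transcript start (kb, horizontal axis); blue marks aNE_M-only, orange pNE_M-only and grey other regions, and shading marks the pair compared. Blue marks gather in the aNE_M row at LMX1B and PAX8 (12 and 9), and orange marks in the pNE_M row at RARB and CDX2 (37 and 11).

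Other lists stood closer to the background. Of 23 forebrain genes 5 were called to aNE_M and 3 to pNE_M. LHX2, an eye field and cortex gene, had 10 aNE_M-only regions and no pNE_M-only one, and PAX6 had 10 and 4. The PAX6 promoter was open in all lists except pNE_M and aNE_H, so also in pNE, pNE_T and pNE_H. WNT pathway genes gave 9 and 6 of 34 (7 and 7 at equal size), with LEF1 at 13 and 3 and WNT5A at 4 and 10. FGF pathway genes gave 5 and 6 of 21, with the FGF-induced phosphatase genes DUSP6 at 2 and 8 and DUSP4 at 1 and 7. SPRED1 at 11 and 5 and FGFR2 at 9 and 4 went the other way. At equal size the FGF list gave 4 and 4, and SPRED1, at 6 and 4, was not called. Proneural and neuronal genes gave none and 3 of 17, led by ELAVL4, a neuronal RNA-binding protein, at 1 and 9. At equal size they gave 1 and 4, and ELAVL4, at 1 and 3, was not called. Dorsal and ventral neural tube genes gave 8 and 2 of 19, with MSX1, a roof plate and neural crest gene, at none and 8. At equal size they gave 4 and 3, so the lean of this list to aNE_M depends on list size. Neural progenitor genes gave 4 and 3 of 20.

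Guidance and adhesion genes, which are long, gave 14 called to aNE_M and 8 to pNE_M of 33. At equal size they gave 11 and 11, where 21.8% and 9.55% of all genes were called. ROBO2, a receptor for SLIT, had 20 aNE_M-only and 52 pNE_M-only regions, while SLIT1, one of its ligands, had 17 and 3. CDH4, a cadherin of developing brain, had 37 and 15. Among the 6 largest differences by nearest gene end were PTPRT (window counts 46 and 11) and VRK1 (8 and 1) on the aNE_M side. On the pNE_M side they were GPC5 (22 and 45), LINGO2 (14 and 39), PCDH9 (18 and 28), TMEFF2 (6 and 17), CSMD3 (13 and 28) and PTPRD (31 and 66). The NBPF20 bin, with 14 and none, and NBPF19 lie among near-identical gene copies, where the assignment of reads is uncertain.

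Lists for other cell types were set beside these results. Neural crest genes gave 5 called to aNE_M and 4 to pNE_M of 14. TFAP2B had 4 and 10 and MSX1 none and 8, while PAX7 had 13 and 4 and ETS1 14 and 8. At equal size the list gave 4 and 2, and TFAP2B, at 4 and 4, was not called. Surface ectoderm and placode genes gave 3 and 3 of 16, with TFAP2A at 3 and 8 and EYA1 at 8 and 18. GRHL3 at 12 and 4 and CDH1 at 8 and 4 went the other way. At equal size the list gave 1 called to aNE_M and 5 to pNE_M, where 9.55% of all genes were called to pNE_M. Mesoderm and endoderm genes gave 4 and 1 of 17, and pluripotency genes 3 and none of 14. The promoter of TFAP2A, which is expressed in surface ectoderm and neural crest, was open in hPSC, DE, pNE_M and pNE_H and closed in aNE_M, and that of GRHL3 the reverse within the pair. RNA was not measured in these lists, so cell type makeup was not tested.

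The widest exclusive peaks show the contrast of histories region by region. Of the 4 widest distal aNE_M-only peaks, the first lies in ESRRB (chr14:76433454-76435109, 1656 bp) and was open in all lists except pNE_M. The next, near ACTL7B (chr9:108786752-108788103, 1352 bp), was likewise missing from pNE_M alone. Of the widest pNE_M-only peaks the second lies 108 kb from OLIG3, a dorsal hindbrain and spinal cord gene (chr6:137602513-137604460, 1948 bp). It was open in pNE_T, pNE_M and pNE_H and in no other list, and the nearest aNE_M peak was 12.8 kb away. A 1208 bp peak within HOXA3 (chr7:27148309-27149516) was open in pNE_M and pNE_H alone.

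Exclusive promoters were few. Of the 15100 promoters 352 were open in aNE_M only (2.33%) and 201 in pNE_M only (1.33%), and at equal size 349 (2.31%) and 199 (1.32%). Promoters open in all 3 posterior and no anterior day 4 lists numbered 49, and 39 at equal size, and those with the mirror pattern numbered 9, and 29 at equal size. Among the 49, the promoters of FABP1, LIPC and A1CF were open in those 3 lists alone. FABP1 is a fatty acid-binding protein, LIPC the hepatic lipase and A1CF a cofactor in editing of the APOB message. The promoter of DDC, the enzyme that makes dopamine and serotonin from their precursors, was also open in those 3 lists alone. These examples were picked after the values were seen. Genes known from liver and gut were not counted among the 49 or among all promoters. Promoters of liver genes such as CPS1 and F11 were open in aNE_M and closed in pNE_M, but neither had the mirror pattern. That of CPS1 was open in all lists except pNE_M. That of F11 was open in hPSC, DE, pNE, aNE_T, aNE_M and pNE_H.

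The letters of the exclusive promoters were compared by short motifs. The CDX site TTTATNG, on either strand, was in 22.9% of pNE_M-only and 7.67% of aNE_M-only promoters, where 15.8% of promoters open in neither and 8.23% of all held it. The OTX site TAATCC was in 3.98% of pNE_M-only and 8.81% of aNE_M-only promoters, against 9.34% of those open in neither and 5.38% of all. The HOX-PBX site TGATTNAT was in 3.48% of pNE_M-only and 0.852% of aNE_M-only promoters, against 4.90% of those open in neither and 2.05% of all. The DR5 retinoic acid receptor site, 2 GGTCA half-sites with 6 free bases between them, was in 1 pNE_M-only promoter and 7 of all. The median GC content was 51.7% in pNE_M-only, 57% in aNE_M-only and 48.7% in promoters open in neither list, and its part in these shares was not tested. No distal region could be read for sequence here.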

How the data were processed

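OmniATAC-seq was run on 30 H1 libraries in 10 groups of 3 replicates. The authors deposited 1 peak list per group with 3 columns, sequence name, start and end; these positions are of no unit of abundance and carry no score, fold or p-value. Per the submitters' processing notes, Bowtie2, MACS2, bedtools, FastQC, featureCounts, edgeR and deepTools and the build hg38 are named, with no version or role. How the 3 replicates were combined and the peak threshold are not given in the sources used here, and either would move every count of exclusive regions. Depth per library is not known.

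Here peaks on chromosomes 1 to 22 were merged as described, with gene positions from RefSeq GRCh38.p14 (56752 genes, of which 19122 protein-coding symbols) and promoters from its promoter table. Lists of equal size kept the widest peaks, since no score exists. The 15 gene lists (316 symbols, 313 matched) and the comparison itself were chosen with earlier results of these data known. Some items are not reported here.

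Named genes were the 6 in each direction with the largest difference by nearest gene end, the 6 by share of at least 10 regions, up to 4 per list, and a set of boundary and retinoic acid genes. The promoters of FABP1, LIPC, A1CF, DDC, CPS1 and F11, the genes OTX1, POU4F1, MEIS2, HOXC13 and the windows by region number and gene density were chosen after values were seen. The merging and window code was checked on simulated lists. Alternatives were list size, the wider 50% of peaks, 50% coverage, windows of 500 bp, regions over 1 kb from gene ends, the pair merged alone, regions over 500 bp from the other list, nearest gene end, other window sizes and call thresholds. Python 3.11.15, numpy 2.4.6 and pandas 2.3.3 were used.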

Additional observations from a re-analysis of the deposited data

Results flagged for a closer look

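Peaks outside chromosomes 1 to 22 were not used in the comparison. They made up 7.74% of the aNE_M list and 7.66% of the pNE_M list. Of these, 7082 and 7524 lay on chromosome X, and 10419 and 9674 on sequences other than the numbered and sex chromosomes.

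The origin difference at aNE_M-only regions went opposite ways in the other media with lists as deposited. The share open on the anterior side alone minus the share open on the posterior side alone was 17.3 points in telencephalon medium and -4.65 points in hindbrain medium. At equal list size the values were 22.5 and 21.6 points. The difference between media was not tested, since each group has 1 list. The pNE_H list is the longest of the 10, at 302355 peaks.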

How the results depend on the processing

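No paired analysis was possible because each group has 1 pooled list, so the replicate numbers of the labels carry no values, and no replicate could be left out. Exclusive regions numbered 31931 and 30389 (aNE_M, pNE_M) with the wider 50% of each list, a cut by construction; no other setting moved either count by over 1.5 times. The Jaccard index was 0.367 with 50% coverage, 0.498 beyond 1 kb of gene ends, 0.558 beyond 500 bp of the other list, 0.514 with the pair merged alone and 0.545 with 500 bp windows.

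The share of aNE_M-only regions open in aNE was 29.4% with 50% coverage, 45.9% at equal list size and 34.2% with 500 bp windows. In pNE it was 45.9%, 53.3% and 51.2% under these settings, 49.9% beyond 500 bp of the other list and 50.0% with the pair at equal size. The share of pNE_M-only regions open in aNE was 8.85% with 50% coverage, 10.1% beyond 500 bp, 10.8% with the wider 50%, 18.2% at equal list size and 11.3% with 500 bp windows. In pNE it was 14.6%, 17.0%, 19.1%, 20.7% and 18.3%. In each setting run both classes were open more often in pNE than in aNE.

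Genes called to aNE_M and pNE_M numbered 10342 and 5448 with a difference of at least 1, 2153 and 799 with 5, 2813 and 1233 with the wider 50%, and 2981 and 1341 with 20 kb windows. By nearest gene end 2730 were called to aNE_M. Midbrain genes called to aNE_M numbered 8 with a difference of 5, 6 with the wider 50% and 8 with 20 kb windows. HOX genes called to pNE_M numbered 9 by nearest gene end and 23 with 20 kb windows, where fewer regions fall to each gene. The HOXC difference in bases was -1327 with the wider 50%, 513 at equal list size and 6328 with 500 bp windows. The HOXD difference was 1758 with 500 bp windows.

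Of 979 recomputed differences at 89 named genes, 838 were counted as the same. At genes called as deposited, 112 fell below 3 regions and 14 changed sign. At genes not called, 15 passed the call in the same direction. Sign changes at genes not called are within the 838. LRRC37A2 went from -1 to 5 at equal list size, and TFAP2C from 2 to -8 by nearest gene end. At called genes the sign changed with the wider 50% of each list at CRIPTO (1), CSMD3 (-2), FGF8 (-1), HES5 (3), LEF1 (3), OTX2 (2), PAX6 (1), VPS53 (1) and ZFP42 (4). With 50% coverage it changed at FGF8 (-1) and TFAP2A (-2), by nearest gene end at FGFR2 (7) and ZFP42 (6), and with 20 kb windows at HES5 (1). The cause was not tested.

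The lists give no heights or reads, so low peaks at either list's threshold cannot be told from closed regions.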
